A study of Homo sapiens with 12 samples.

Results

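Mitochondrial oxidative phosphorylation is carried out by multisubunit complexes whose parts come from both genomes of the cell, and the messenger RNAs of these parts were followed in 2 lung cancer lines. The set holds 103 of the 26535 features of the count table, chosen by gene symbol: the subunit genes of complexes I to V, of which 90 are nuclear and 13 are encoded by mitochondrial DNA. The rule used names alone and no measured value, but it was set with earlier results of these data known. It also takes in ATP5IF1, an inhibitor of ATP synthase, and the paralogs NDUFA4L2, UQCRHL, COX6B2 and COX7B2. Some known subunit genes with other symbols, such as CYC1, are not in it. RNA sequencing was done on H1299 and A549, established human non-small-cell lung cancer lines, each given a VGF lentivirus or an empty vector. VGF is the gene of a precursor protein that neuroendocrine cells secrete. The 4 groups were H1299 with VGF, H1299 with empty vector, A549 with VGF and A549 with empty vector, each with 3 libraries that the design text calls biologically independent. All cells were labelled wild type and all received a vector. H1299 was kept in RPMI-1640 and A549 in DMEM/F12, so line and medium cannot be told apart. The promoter that drives VGF, and whether the cells were clones or pools, is information not given in the sources used here.

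Electrons from NADH enter the chain at complex I and those from succinate at complex II, pass through complexes III and IV to oxygen, and the proton gradient drives ATP synthase, complex V. Mitochondrial DNA encodes core subunits of complexes I, III, IV and V and none of complex II. Its genes are read as long precursors from both strands, which are then cut into single RNAs, while the nuclear genes are read one by one and their proteins imported. In tumour cells the balance between respiration and glycolysis differs between lines.

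The libraries held 31378171 to 41919484 counts. VGF had 35974 to 47251 counts in the VGF libraries of both lines, against 3465 to 3989 with empty vector in H1299 and 67 to 94 in A549. CDKN2A had 5158 to 7075 counts in H1299 and 0 to 51 in A549, a line known to lack the gene. Of 6 epithelial markers, KRT8 had 18157 to 22028 counts in H1299 and 120606 to 147299 in A549, and KRT18 23472 to 27048 and 72312 to 94524. KRT7 had 29 to 90 in H1299 and 34824 to 43030 in A549, and KRT19 5 to 53 and 92 to 191. CDH1 had 0 counts in every H1299 library and 2653 to 3190 in A549, and EPCAM at most 36 in any library. A549 VGF replicate 2 stood apart: all 12 endothelial markers on the list summed to 430 CPM there (counts scaled to the library total alone; CPM of single genes below also use the TMM factor), against 71.5 to 85.7 in the other A549 libraries and 26.5 to 32.8 in H1299. CDH5 had 3387 counts in it and at most 21 elsewhere, and its 51 CDKN2A counts were the highest of A549. The part of that library in each result was not tested, and values without it are given below where they bear on A549.

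The 2 genomes' transcripts stood in different proportion in the lines. The 13 mitochondrially encoded genes took 3.03, 3.09 and 3.41% of the counts in H1299 VGF libraries and 3.32, 3.47 and 3.43% in H1299 empty-vector libraries. They took 6.83, 6.81 and 7.33% in A549 VGF libraries and 7.63, 7.59 and 7.03% in A549 empty-vector libraries. Within each line the vector groups overlapped, and between the lines no library overlapped. The 90 nuclear genes ran the other way. They took 0.918, 0.966 and 0.916% of the counts in H1299 VGF libraries, 0.903, 0.876 and 0.894% in H1299 empty-vector libraries, 0.713, 0.689 and 0.685% in A549 VGF libraries and 0.690, 0.694 and 0.675% in A549 empty-vector libraries. With empty vector, mitochondrially encoded counts were 3.83 ± 0.14 times the nuclear ones in H1299 and 10.8 ± 0.34 times in A549 (SD, n = 3 each), a log2 difference of the ratio of -1.50, or 2.82-fold lower in H1299. The ratio of summed FPKM, a level scaled to feature length and library size, was 4.75 ± 0.13 in H1299 and 14.4 ± 0.49 in A549 with empty vector, 3.04-fold lower in H1299. In bulk RNA, fewer cells of a type and less RNA per cell cannot be told apart, and the same holds for mitochondria per cell.

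**Figure D1:**
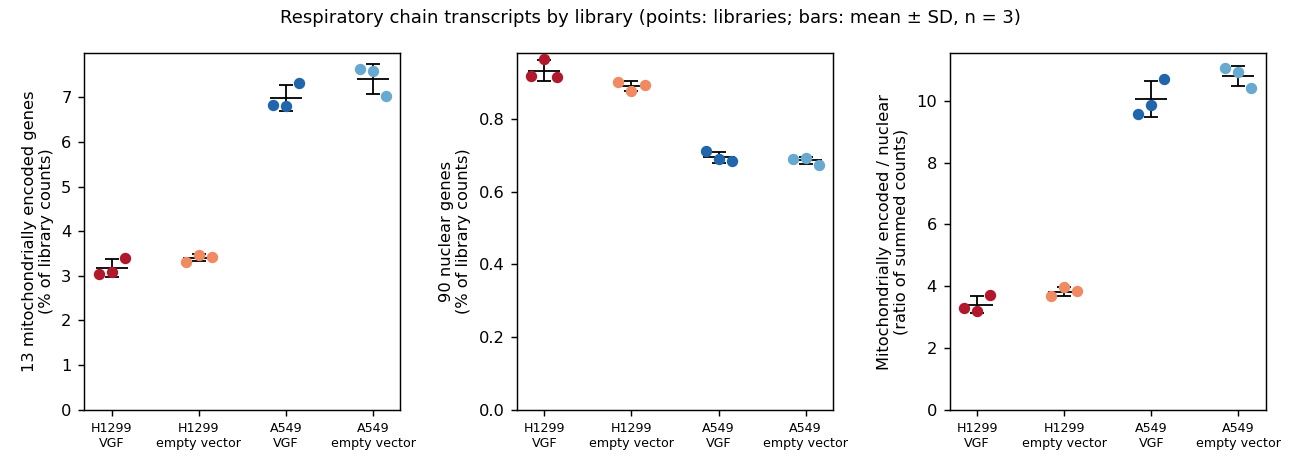
Share of library counts of the 13 mitochondrially encoded genes (left, percent), of the 90 nuclear genes (middle, percent) and the ratio of these sums (right), by group. Points are libraries and bars mean ± SD of 3 libraries; H1299 libraries lie below all A549 libraries at left and right and above them in the middle.

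Per length, the group means of the mitochondrially encoded mRNAs stood above those of all nuclear members, except that MT-ND3 lay below ATP5F1B in both H1299 groups. MT-CO1, the catalytic subunit of complex IV, had the highest level, with 5838 FPKM in H1299 VGF, 6207 in H1299 empty vector, 13750 in A549 VGF and 14400 in A549 empty-vector cells. MT-ND3, a small complex I subunit, had the lowest mitochondrial level, at 588, 575, 750 and 770 FPKM in the same 4 groups. ATP5F1B, the catalytic beta subunit of ATP synthase, led the nuclear members, with 605, 579, 459 and 455 FPKM in those groups. The median nuclear member stood at 66.9 FPKM in H1299 VGF, 67.5 in H1299 empty vector, 49.6 in A549 VGF and 50.2 in A549 empty-vector cells. The feature lengths that entered the FPKM values were not given in the sources used here.

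Neighbouring mitochondrial genes share bases. MT-ATP8 and MT-ATP6 overlap by 46 bases in GENCODE 29 (GRCh38, chrM:8527-8572, plus strand), 22.2% of MT-ATP8 and 6.75% of MT-ATP6. The shared stretch is shown because reads within it match both genes, and its capitals mark the start codon of MT-ATP6.
MT-ATP8/MT-ATP6 overlap: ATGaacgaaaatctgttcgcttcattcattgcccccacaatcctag
MT-ND4L and MT-ND4 share 7 bases, and MT-ATP6 and MT-CO3 share 1. MT-ND6 alone among the 13 lies on the minus strand. GENCODE 29 also lists 394 nuclear pseudogenes named after mitochondrial mRNAs, of which 0 are features of the count table. How reads that match both a pseudogene and a mitochondrial gene were handled is not given in the sources used here.

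With empty vector, all 13 mitochondrially encoded mRNAs were lower in H1299 than in A549. Each passed edgeR's quasi-likelihood test with Benjamini-Hochberg adjustment over 18228 features, called at an adjusted p under 0.05. Over all features 38.5% were called higher and 38.6% lower in this contrast, so a call by itself is common here. The median log2 fold change of the 13 was -1.27, against 0.01 for all features tested. Values below are CPM of the normalised library. MT-CO3, a core subunit of complex IV, had 3183, 3299 and 3260 CPM in H1299 and 10560, 10260 and 10040 in A549 (log2 fold change -1.66, SE 0.04, adjusted p = 1.5e-12). MT-CO1 had 9255, 9902 and 9194 CPM in H1299 and 25200, 25940 and 24480 in A549 (-1.41, SE 0.06, adjusted p = 8.4e-11). No library of one line reached the range of the other for either gene. The share of all features that separate the lines in this way was not counted.

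The 13 did not move by one factor. MT-ND3 had 193.5, 179.1 and 216.1 CPM in H1299 and 297.1, 300.4 and 310.2 in A549 (log2 fold change -0.62, SE 0.07, adjusted p = 4.8e-06). MT-ND2, a membrane-arm subunit of complex I, averaged 1996 ± 59 CPM in H1299 and 3146 ± 293 in A549 (-0.66, SE 0.07). MT-CYB, the cytochrome b of complex III, averaged 1935 ± 83 CPM in H1299 and 3403 ± 217 in A549 (-0.81, SE 0.07). The other complex I genes, MT-ND1, MT-ND4, MT-ND4L, MT-ND5 and MT-ND6, had log2 fold changes of -1.12 to -1.28. The complex IV genes ranged from -1.41 to -1.66 and the complex V genes MT-ATP6 and MT-ATP8 stood at -1.28 and -1.51. Differences between members were not tested.

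**Figure D2:**
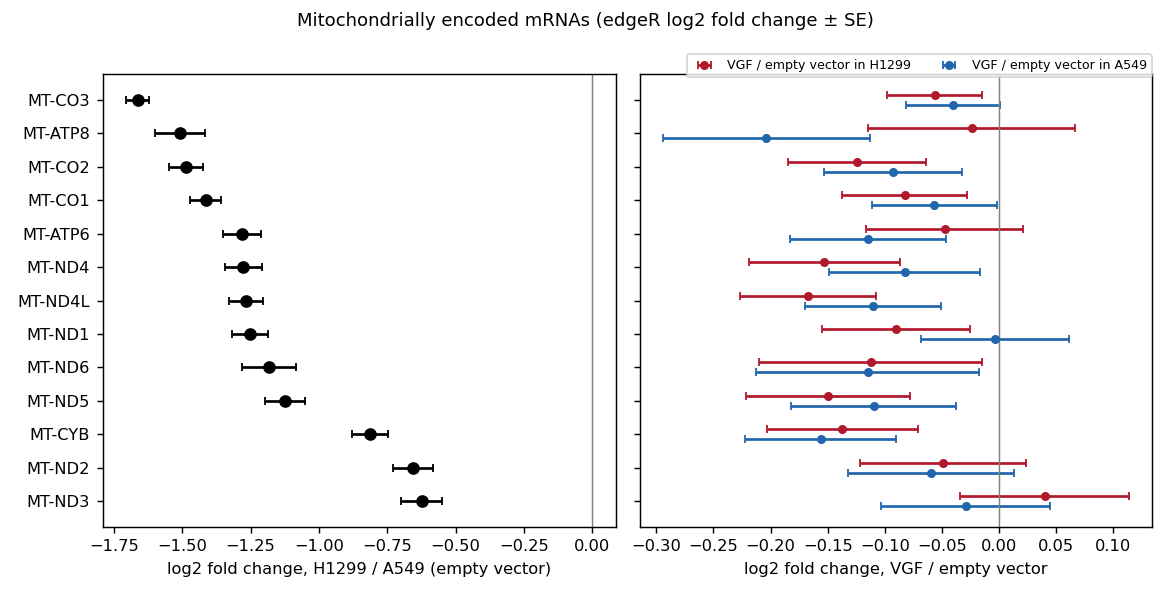
Log2 fold change (x axis) of each mitochondrially encoded mRNA for H1299 against A549 with empty vector (left) and for VGF against empty vector in each line (right, on a narrower axis). Points are edgeR estimates and bars 1 SE; left estimates run from -1.66 (MT-CO3) to -0.62 (MT-ND3), while right estimates stay between -0.20 and 0.04.

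Among nuclear members, 83 of 90 passed the filter on low counts. Of these, 48 (57.8%) were higher in H1299, 22 (26.5%) were lower and 13 were not called, with a median log2 fold change of 0.22 against 0.01 for all features. The 7 that failed the filter were COX4I2, COX6A2, COX7A1, COX8C, ATP5MGL and the readthrough genes ATP5MF-PTCD1 and NDUFC2-KCTD14. The split depends on scaling: on log2(FPKM + 1) 52 were called higher and 10 lower, and with upper-quartile scaling 49 and 13, settings that moved the median of all features to 0.12 and 0.11. By complex, in the order higher, lower and not called, the counts were 20, 13 and 6 of complex I, 2, 2 and 0 of complex II, 4, 1 and 4 of complex III, 8, 2 and 3 of complex IV and 14, 4 and 0 of complex V. Complexes are assigned by symbol, which puts NDUFA4, now regarded as a complex IV subunit, under complex I.

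**Figure D3:**
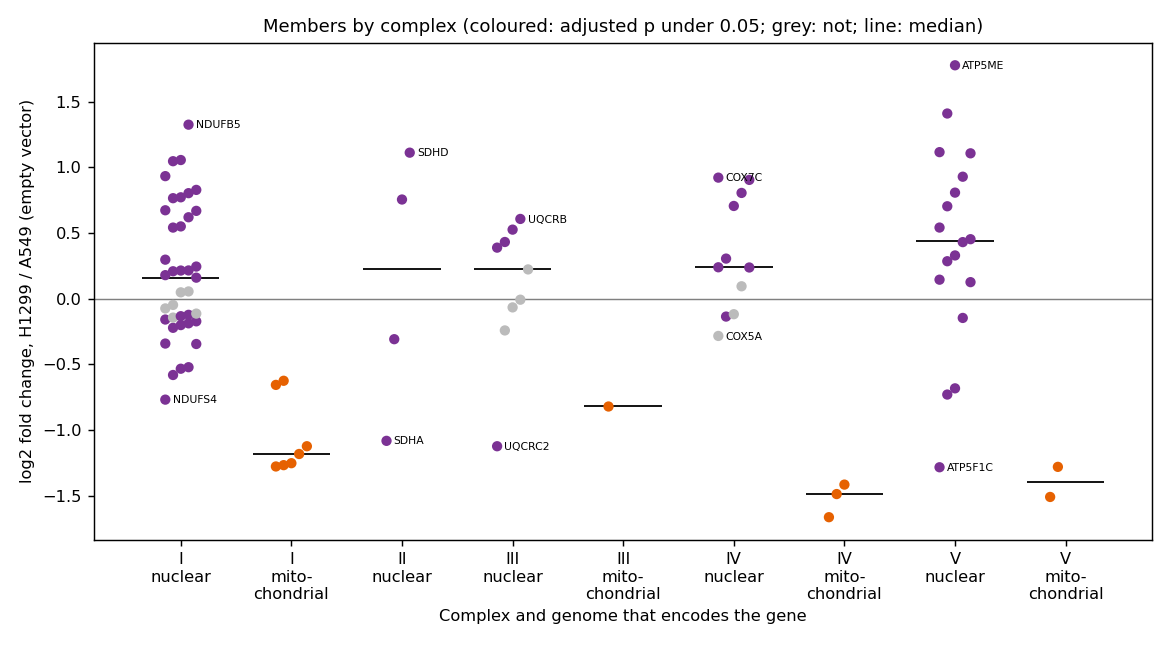
Log2 fold change of each tested member (y axis) for H1299 against A549 with empty vector, by complex and genome (x axis). Coloured points have an adjusted p under 0.05, grey points do not, and lines are medians; COX7B2 (8.70) and COX6B2 (-3.44) are off the axis. All mitochondrially encoded points lie below 0, and nuclear points lie on both sides within each complex.

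Complex II, all 4 subunits of which are nuclear, split evenly. SDHA, the flavoprotein that oxidises succinate, had 109.2, 109.1 and 100.1 CPM in H1299 and 230.9, 231.7 and 211.4 in A549 (log2 fold change -1.08, SE 0.06, adjusted p = 1.9e-09). SDHD, a membrane anchor, had 125.1, 117.7 and 115.0 CPM in H1299 and 55.5, 53.9 and 56.3 in A549 (1.11, SE 0.06, adjusted p = 1.3e-09). SDHB, the iron-sulphur subunit, had 135.5, 135.2 and 125.9 CPM in H1299 and 78.3, 76.6 and 80.2 in A549 (0.75, SE 0.05, adjusted p = 8.3e-09). Of these 3 genes, SDHA lay low in H1299 and the other 2 lay high. SDHC, the second anchor, averaged 106.8 ± 1.5 CPM in H1299 and 132.3 ± 1.6 in A549 (-0.31, SE 0.05, adjusted p = 4.5e-05), a direction that turned on the FPKM scales, where it was 0.07 and not called. SDHD shares 11.2% of its exonic bases with another annotated gene on the same strand, and how such reads were assigned is not given in the sources used here.

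Promoter windows of SDHA, SDHB and SDHD are shown because their mRNAs went opposite ways in the lines. The RefSeq windows (GRCh38.p14) run from 250 bases before to 50 after the gene's start, 5′ to 3′ on the gene's strand. Capitals mark matches on either strand to GCATGCGC (a core of the NRF1 site), CCGGAAG (an ETS site, as bound by GABPA) or AAGATGGC (a YY1 site).
SDHA (chr5:218070-218369, plus strand): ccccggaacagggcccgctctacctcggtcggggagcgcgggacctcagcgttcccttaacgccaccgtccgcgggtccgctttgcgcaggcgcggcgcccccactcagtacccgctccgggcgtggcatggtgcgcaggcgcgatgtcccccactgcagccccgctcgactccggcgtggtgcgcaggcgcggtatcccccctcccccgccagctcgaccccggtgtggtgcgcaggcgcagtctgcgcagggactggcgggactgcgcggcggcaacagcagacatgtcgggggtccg
SDHB (chr1:17053983-17054282, minus strand): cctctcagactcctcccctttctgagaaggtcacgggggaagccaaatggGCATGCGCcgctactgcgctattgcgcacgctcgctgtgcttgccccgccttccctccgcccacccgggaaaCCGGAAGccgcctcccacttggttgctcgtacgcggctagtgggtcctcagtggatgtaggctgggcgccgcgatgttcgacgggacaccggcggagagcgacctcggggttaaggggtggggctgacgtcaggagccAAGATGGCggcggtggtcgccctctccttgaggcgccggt
SDHD (chr11:112086623-112086922, plus strand): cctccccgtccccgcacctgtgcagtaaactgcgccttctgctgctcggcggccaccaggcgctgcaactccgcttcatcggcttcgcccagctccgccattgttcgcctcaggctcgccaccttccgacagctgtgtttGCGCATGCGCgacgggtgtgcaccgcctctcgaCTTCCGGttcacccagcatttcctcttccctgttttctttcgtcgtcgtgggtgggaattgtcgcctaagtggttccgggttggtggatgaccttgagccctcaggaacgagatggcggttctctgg
The SDHB window holds 1 match to each of the 3 motifs. The SDHD window holds 2 overlapping NRF1 matches, 1 on each strand, and 1 ETS match. These exact letters are not in the SDHA window. Only the exact letters were searched, so other forms of these sites were not counted in any window. Of 83 tested nuclear members, 66 matched a RefSeq promoter by symbol. The NRF1 letters were in 16.7% of the 66 and in 3.05% of all 35116 promoters of that length, the ETS letters in 28.8% and 10.3%, and the YY1 letters in 18.2% and 2.89%. At least 1 motif was in 50.0% of members and 14.9% of all promoters. Among members called higher in H1299 (37 matched) and lower (17 matched), the NRF1 letters were in 16.2% and 17.6%, the ETS letters in 37.8% and 11.8%, and the YY1 letters in 21.6% and 5.88%. These shares are a description; a match is not a bound site, and the small counts were not tested.

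Complex I had members at both ends. NDUFB5, an accessory subunit of the membrane arm, had 80.4, 79.3 and 84.6 CPM in H1299 and 30.9, 32.1 and 34.5 in A549 (log2 fold change 1.32, SE 0.07, adjusted p = 2.2e-09). NDUFS7, a core subunit with an iron-sulphur cluster, and NDUFB9, an accessory subunit, were higher by 1.05 each. NDUFS7 shares 49.1% and NDUFB9 21.0% of exonic bases with opposite-strand genes, and without a stated strand setting such reads cannot be told apart. NDUFS4, an accessory subunit of the NADH arm, averaged 26.5 ± 1.6 CPM in H1299 and 45.2 ± 4.1 in A549 (-0.77, SE 0.07, adjusted p = 4.2e-07). NDUFS1, the largest core subunit, averaged 125.0 ± 2.4 CPM in H1299 and 186.9 ± 6.1 in A549 (-0.58, SE 0.04). NDUFB2, NDUFB10 and NDUFA1 were also lower, by log2 fold changes of -0.53, -0.52 and -0.34. NDUFB2 shares 35.1% and NDUFA1 44.5% of exonic bases with opposite-strand genes, and NDUFA1 was not called on the FPKM scales (-0.14, adjusted p = 0.15).

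In complex III the paired core proteins went apart. UQCRC2 had 115.7, 117.5 and 113.6 CPM in H1299 and 244.7, 255.2 and 255.5 in A549 (log2 fold change -1.12, SE 0.04, adjusted p = 3.8e-11), while UQCRC1 averaged 193.5 ± 13.4 and 194.6 ± 11.1 CPM (-0.01, SE 0.06, adjusted p = 0.91). UQCRC2 thus lay lower in H1299, while the UQCRC1 libraries of the lines overlapped. UQCRH, the hinge protein, was higher in H1299 by 0.53 (SE 0.05). Its near-identical paralog UQCRHL had 2.64 ± 0.51 CPM in H1299 and 2.27 ± 0.29 in A549 and was not called (0.22, adjusted p = 0.38); reads of this pair may be split uncertainly.

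ATP synthase showed the same within-complex spread. ATP5F1C, the gamma subunit that forms the central shaft, had 99.6, 103.6 and 101.8 CPM in H1299 and 231.0, 249.2 and 262.0 in A549 (log2 fold change -1.28, SE 0.05, adjusted p = 5.6e-11). ATP5F1D, the delta subunit seated on that shaft, had 43.1, 39.0 and 44.2 CPM in H1299 and 16.1, 16.0 and 15.4 in A549 (1.41, SE 0.09, adjusted p = 1.7e-08). ATP5F1A, the alpha subunit, was higher by 0.45 and ATP5F1B by 0.14. Gamma thus lay low and delta high in H1299, with smaller log2 fold changes of alpha and beta. ATP5ME, the e subunit of the membrane part, had 29.02, 26.97 and 26.61 CPM in H1299 and 8.21, 7.19 and 8.72 in A549 (1.78, SE 0.11, adjusted p = 6.3e-09), but 61.6% of its exonic bases face MYL5 on the other strand. ATP5PO, part of the peripheral stalk, ATP5MG, the g subunit, and ATP5MPL, a small proteolipid, were higher by 1.11, 1.11 and 0.93; ATP5PO shares 19.6% of exonic bases with another gene of the same strand.

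Paralogs were also set side by side. ATP5MC1, ATP5MC2 and ATP5MC3 encode the same mature c subunit of the rotor ring. ATP5MC1 averaged 58.5 ± 6.5 CPM in H1299 and 93.9 ± 0.9 in A549 (log2 fold change -0.68, SE 0.07), ATP5MC3 91.9 ± 1.6 and 152.4 ± 12.2 (-0.73, SE 0.06), and ATP5MC2 159.7 ± 2.5 and 146.4 ± 10.1 (0.13, SE 0.05, adjusted p = 0.045). The ATP5MC2 call was lost, at adjusted p = 0.052 to 0.20, without A549 empty-vector replicate 1 or 3, A549 VGF replicate 1, any one H1299 empty-vector replicate or H1299 VGF replicate 2, and at adjusted p = 0.052 with RLE size factors. The 2 lower genes thus kept their call in every setting run and ATP5MC2 did not.

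In complex IV, COX7B2, an isoform known from testis, was read almost only in H1299: pooled over 3 libraries it had 1242 counts in H1299 with empty vector and 2 in A549 with empty vector, a ratio of 557 per library total, without TMM factors (95% exact interval 154 to 4605, counting error only). It had 10.0, 8.05 and 10.6 CPM in H1299 against 0.058, 0 and 0 in A549. COX7B, the common form, averaged 122.2 ± 4.9 CPM in H1299 and 98.9 ± 6.6 in A549 (log2 fold change 0.30, SE 0.05, adjusted p = 0.00021). COX6B2, the testis form, ran the other way at low level, with 0.13, 0.27 and 0.073 CPM in H1299 and 1.43, 2.21 and 1.68 in A549 (-3.44, SE 0.57, adjusted p = 0.0001), and the common COX6B1 was higher in H1299 (0.80, SE 0.07). COX7B2 thus lay higher in H1299 and COX6B2 higher in A549. COX6B2 shares 30.9% of its exonic bases with another gene on the same strand. COX4I1 (0.24), COX7A2 (0.90) and NDUFA4 (0.24) were higher in H1299. COX6A1 (-0.12) and COX8A (0.09) were not called, COX6A1 turned to 0.08 on the FPKM scales, and COX8A was called there (0.30) and with upper-quartile scaling (0.20). COX7A2L, a factor in supercomplex assembly, was -0.14 (adjusted p = 0.037), not called in 6 of 12 fits that left out 1 library (any A549 empty-vector replicate, A549 VGF replicate 2, H1299 empty-vector replicate 1 or 2; adjusted p = 0.051 to 0.19), with upper-quartile scaling (-0.03, adjusted p = 0.65), without a filter (0.061) or with the comparison fitted alone (0.089), and it was 0.04 on the FPKM scales. NDUFA4L2, a paralog known to rise in hypoxia, had 1.49 ± 0.34 CPM in H1299 and 0.78 ± 0.46 in A549 (0.93, SE 0.38, adjusted p = 0.038), a call lost without A549 empty-vector replicate 2 or 3 or H1299 empty-vector replicate 1 or 3 (adjusted p = 0.052 to 0.14), without a filter (0.053) or with the comparison fitted alone (0.076). COX4I2, known from lung, and COX6A2, known from heart and muscle, had 0 counts in every library, which allows up to 0.0277 CPM of the library totals, without TMM factors, in A549 with empty vector at a floor of 3 counts over the group.

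Lists of genes that build, feed and read the chain were written with earlier results of the data known. Their counts stand against the 38.5% of all features called higher and 38.6% called lower in H1299, and are a description with no test of the lists. Of 50 assembly factors, 16 were higher and 22 lower in H1299. ACAD9, for complex I, was higher (70.8 ± 3.6 CPM in H1299, 35.5 ± 1.8 in A549; log2 fold change 0.99), as were UQCC1 and TIMMDC1, while COA3, which supports synthesis of the MT-CO1 product, was lower (17.5 ± 1.4 and 36.9 ± 0.9; -1.08), with COA4 and TTC19. Of 17 citric acid cycle genes, 5 were higher and 10 lower; IDH2, an NADP-linked isocitrate dehydrogenase, was 10.8 ± 0.8 CPM in H1299 and 76.7 ± 7.4 in A549 (-2.83), and IDH3A (-1.35) and PDHA1 (-0.91) were lower too, against DLST, MDH2 and OGDH, higher by 0.34 to 0.36. Of 28 genes for electron carriers and cofactors, 7 were higher and 14 lower. COQ3, for ubiquinone synthesis, was higher by 1.69 and ETFA, an electron-transferring flavoprotein, lower by -1.52. Of 78 mitochondrial ribosomal proteins, 36 were higher and 25 lower, from MRPS22 (1.73) to MRPS26 (-1.36).

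Of 29 genes for mitochondrial transcription and RNA, 9 were higher and 12 lower in H1299, against the same 38.5% and 38.6% of all features. TFAM, which packages and transcribes mitochondrial DNA, had 89.8, 99.2 and 99.7 CPM in H1299 and 53.7, 59.6 and 61.7 in A549 (log2 fold change 0.72, SE 0.08, adjusted p = 2.1e-06). LRPPRC and SLIRP, partners in a complex that stabilises mitochondrial mRNAs, went apart: LRPPRC averaged 222.9 ± 3.3 CPM in H1299 and 355.4 ± 9.4 in A549 (-0.67, SE 0.05), and SLIRP 53.5 ± 2.7 and 22.6 ± 1.5 (1.25, SE 0.06). FASTKD5, needed to process mitochondrial RNAs, was lower (-1.03), as was KIAA0391, the nuclease subunit of mitochondrial RNase P (-1.35). Of 17 nuclear regulators, 9 were higher and 7 lower. PPARGC1A, a coactivator of mitochondrial biogenesis, had 7.93, 7.94 and 8.99 CPM in H1299 and 0.47, 0.060 and 0.33 in A549 (4.84, SE 0.67, adjusted p = 2.0e-05). GABPA (0.98) and YY1 (0.75) were higher, and the nuclear receptor ESRRA was lower (-0.55). HIF1A averaged 184.9 ± 4.0 CPM in H1299 and 829.7 ± 16.7 in A549 (-2.17), and EPAS1 4.70 ± 1.22 and 455.5 ± 41.5 (-6.60). Both encode subunits of hypoxia-inducible transcription factors. No list or factor was tested for a link to the members' levels.

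The members' differences between the lines were set beside those of nearby genes. For 82 nuclear members with at least 5 tested genes within 2 Mb, the members' log2 fold change between lines and the median of these neighbours had r = 0.516 (81 members, without COX7B2), a description with no test, since all points share the same 6 libraries and nearby members share neighbours. Of 47 members called higher, 36 had a neighbour median above 0, and of 22 called lower, 17 had one below 0. The medians of the neighbour medians of the 47 and the 22 were 0.33 and -0.41. The same values were not computed for genes outside the set, so they are not shown to be particular to these members. ATP5F1C (neighbours -1.07), SDHA (-0.57), UQCRC2 (-0.67), SDHD (0.73) and NDUFB5 (0.98) had neighbours shifted the same way. NDUFS1, in contrast, was lower by -0.58 with neighbours at 0.06.

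**Figure D4:**
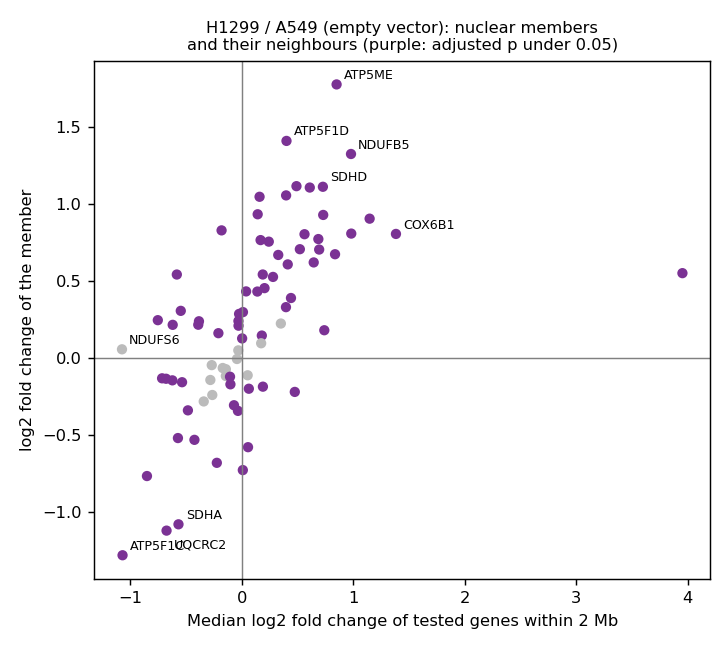
Log2 fold change of nuclear members (y axis) against the median of tested genes within 2 Mb (x axis) for H1299 against A549 with empty vector. Points are genes, purple at an adjusted p under 0.05; COX7B2 and COX6B2 are not drawn, NDUFA5 is the point at 3.95, and r was 0.516 over 81 members, with points running from lower left (ATP5F1C) to upper right (ATP5ME).

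VGF changed no member past the threshold. In H1299, 0 of 83 nuclear and 0 of 13 mitochondrially encoded members were called by edgeR, against 0.00549% of all features called higher and 0.00549% called lower. At an unadjusted p under 0.05, 13 nuclear (15.7%) and 2 mitochondrial members passed, against 7.80% of all features. The nuclear count was 3 without H1299 VGF replicate 2 and 8 without H1299 empty-vector replicate 2, within 3 to 19 over all fits that left out 1 library, and the mitochondrial count ran from 0 (without H1299 VGF replicate 1 or 2 or empty-vector replicate 2) to 8 (without H1299 VGF replicate 3). DESeq2 and limma voom called 0 members, against 139 and 1 of all 18228 features. Though none was called, 72 of 83 nuclear members had a log2 fold change above 0, and the median was 0.08 against -0.01 for all features, and the 3 VGF libraries all lay above the 3 empty-vector libraries for 24 members (28.9%) and below for 0, against 5.65% and 7.07% of all features. The summed nuclear share of counts also lay higher in each VGF library than in any empty-vector library. H1299 VGF replicate 2 held the highest VGF value of 54 of the 83, and without it the median was 0.07 with 63 of 84 positive. The 13 mitochondrial genes had a median of -0.09 with 1 of 13 positive, and H1299 VGF replicate 3 held the highest VGF value of all 13. Without that replicate the median was -0.16, and without replicate 1 it was -0.05.

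Named members of H1299 had small differences. NDUFA8, an accessory subunit of complex I, had 42.3, 42.6 and 43.9 CPM with VGF and 38.9, 36.1 and 33.8 with empty vector (log2 fold change 0.24, SE 0.06, adjusted p = 0.30). NDUFB8, another accessory subunit, had 76.9, 87.2 and 80.9 CPM with VGF and 70.2, 72.2 and 74.1 with empty vector (0.18, SE 0.06, adjusted p = 0.45). UQCRC2 had 131.1, 125.1 and 123.4 CPM with VGF and 115.7, 117.5 and 113.6 with empty vector (0.13, SE 0.04, adjusted p = 0.45). In all 3 the groups did not overlap, yet none passed. MT-ND4L, MT-ND4 and MT-ND5, complex I subunits, had log2 fold changes of -0.17, -0.15 and -0.15 (adjusted p = 0.51, 0.62 and 0.65).

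In A549, edgeR called 0 of 83 nuclear and 0 of 13 mitochondrial members, against 0.406% of all features higher and 0.384% lower. At an unadjusted p under 0.05 there were 7 nuclear (8.43%) and 2 mitochondrial (15.4%) members, against 13.9% of all features. The nuclear count was 2 without A549 VGF replicate 1 and 4 without VGF replicate 2, within 2 to 10 over the fits that left out 1 library, and the mitochondrial count ran from 0 (without A549 VGF or empty-vector replicate 1 or 2) to 5 (without A549 empty-vector replicate 3). VGF libraries lay all above for 11 nuclear members (13.3%) and all below for 1 (1.20%), against 9.28% and 9.08% of all features. The nuclear median was 0.02 and the mitochondrial median -0.09, with 0 of 13 positive, against 0.00 for all features. Leaving out 1 A549 library moved these small medians: the nuclear one was 0.00, 0.04 and 0.03 without VGF replicate 1, 2 and 3, and 0.04, 0.04 and 0.00 without empty-vector replicate 1, 2 and 3. The mitochondrial median was -0.07, -0.08 and -0.13 without the same VGF replicates, and -0.06, -0.06 and -0.13 without the same empty-vector replicates. NDUFB6, an accessory subunit of complex I, had 36.4, 33.2 and 31.8 CPM with VGF and 26.6, 27.7 and 27.0 with empty vector (log2 fold change 0.32, SE 0.09, adjusted p = 0.12). DESeq2 called this 1 member (0.32, adjusted p = 0.035) and limma voom called 0, against 729 and 334 of all 18228 features. ATP5F1C and NDUFC2 had log2 fold changes of 0.13 and 0.13 (adjusted p = 0.27 and 0.28). MT-CYB had 2942, 2973 and 3247 CPM with VGF and 3616, 3411 and 3183 with empty vector (-0.16, SE 0.07, adjusted p = 0.32), and the groups overlapped. MT-ATP8 (-0.20) was not called. MT-ND4L had 1907, 1905 and 1966 CPM with VGF and 2127, 2081 and 2030 with empty vector (-0.11, not called), the 1 mitochondrial member of 13 (7.69%) whose VGF libraries all lay below, with 0 above, against the 9.08% and 9.28% of all features. NDUFC2-KCTD14, which was not tested, had 55 of its 61 A549 VGF counts in replicate 2 and 6 in the others, against 3 with empty vector.

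**Figure D5:**
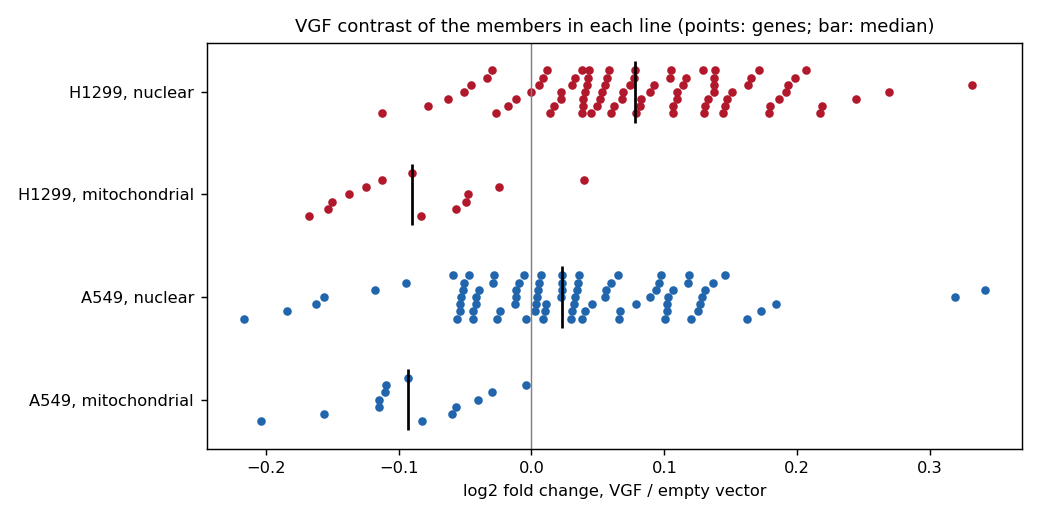
Log2 fold change for VGF against empty vector (x axis) of nuclear and mitochondrially encoded members in each line (rows). Points are genes, jittered vertically, and bars medians; COX7B2 is left out. The mitochondrial medians are -0.09 in both lines, and the nuclear medians are 0.08 in H1299 and 0.02 in A549.

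The VGF effect was not shown to differ between the lines for any member. As a test of the difference (H1299 minus A549), 0 of 96 members were called, against 0.0878% of all features higher and 0.0713% lower, and 6 nuclear (7.23%) and 0 mitochondrial members had an unadjusted p under 0.05, against 11.2% of all features. The nuclear count ran from 3 (without H1299 empty-vector replicate 2) to 9 (without A549 empty-vector replicate 3). NDUFA8 had 42.3, 42.6 and 43.9 CPM with VGF in H1299, as above, while in A549 it had 36.0, 38.4 and 40.4 with VGF and 42.1, 39.6 and 40.9 with empty vector (difference 0.34, SE 0.09, adjusted p = 0.21). UQCRC2 (difference 0.17, adjusted p = 0.31) and NDUFS3, a core subunit of complex I (0.29, adjusted p = 0.34), also missed the threshold. Among mitochondrial genes the smallest p belonged to MT-ATP8 (0.18, adjusted p = 0.66), MT-ND1 (-0.09, adjusted p = 0.81) and MT-ND4 (-0.07, adjusted p = 0.88).

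Of the wider lists, 1 gene was called in a VGF contrast, 1 of 29 genes for mitochondrial transcription and RNA, in A549. The other lists, of 50, 78, 28, 17 and 17 genes, had 0 calls there. Of all features, 0.406% were called higher and 0.384% lower in A549, so 1 call among the lists is not set apart from that share. TFB1M, a methyltransferase of mitochondrial ribosomal RNA, fell in A549 to 6.36, 5.93 and 7.08 CPM with VGF, against 9.46, 8.48 and 10.6 with empty vector (log2 fold change -0.56, SE 0.11, adjusted p = 0.043). The call was lost without the low-count filter (adjusted p = 0.051), with limma voom (0.081) and without any one library other than A549 empty-vector replicate 2 (adjusted p = 0.054 to 0.13). In H1299, 70 of 78 mitochondrial ribosomal protein genes had log2 fold changes above 0, against 8275 of all 18228 features. Their median was 0.09, against -0.01 for all features, and 0 were called. In A549, 57 of the 78 were above 0, against 8978 of all 18228 features. Their median there was 0.05, against 0.00 for all features, and 0 were called.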

How the data were processed

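The authors deposited raw read counts per gene, whole numbers with differing totals, and FPKM values for the same features, scaled by the authors to feature length and library size. FPKM did not follow CPM by a fixed factor for every gene. ATP5F1A had 372.7, 384.1 and 382.5 CPM in the A549 VGF libraries but 56.7, 154.7 and 57.3 FPKM, and the cause was not tested. Per the submitters' processing notes the build was GRCh38 and DESeq2 was used; the aligner, counter, annotation and strand setting were not given in the sources used here. The 18 lines that hold no feature were left out.

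Counts were tested with edgeR 4.0.16 in R 4.3.3: TMM scaling, filterByExpr by group, a quasi-likelihood fit of 4 group means in 12 libraries without a block, and Benjamini-Hochberg adjustment over 18228 features at 0.05. The contrasts set VGF against empty vector within each line, took the difference of these effects, and compared H1299 with A549 under empty vector. Alternatives were RLE and upper-quartile scaling, scaling without mitochondrial genes, no filter, DESeq2 1.42.0, limma 3.58.1 (voom, and log2 FPKM with 1 or 0.1 added), a replicate block, each comparison alone, and leaving out each library. Scripts were tested on simulated data. CPM values of single genes use the total multiplied by the TMM factor; marker sums and pooled ratios use the total alone. P-values set a difference against the spread between libraries of a group. With 1 line on each side, those of H1299 against A549 do not cover the spread among lines. Replicates differed beyond sampling noise. Genes, overlaps and coordinates follow GENCODE 29, and promoters are from RefSeq. Of the tested members, 30 share over 10% of exonic bases with other genes on either strand. NDUFB8, NDUFS3, COX8A and COX6B2 are among them, and not all are marked in the text.

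Named were all mitochondrially encoded, complex II and paralog members, the 10 largest called changes per direction between lines at 5 CPM or more, called members or the 3 smallest p in VGF contrasts, and up to 3 called members per direction of each list; ATP5F1A, ATP5F1B, UQCRC1, NDUFA5 and NDUFC2-KCTD14 were added after their values were seen. Members and lists were chosen with earlier results of these data known.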

Additional observations from a re-analysis of the deposited data

Results flagged for a closer look

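NDUFB1, an accessory subunit of complex I, was the 1 member of 96 whose VGF libraries lay on opposite sides of the empty-vector libraries in the lines (1.04%), against 192 of all 18228 features tested (1.05%). It had 21.5, 21.5 and 20.4 CPM with VGF and 19.5, 15.9 and 20.1 with empty vector in H1299, and 9.61, 9.69 and 8.69 CPM with VGF and 10.1, 10.4 and 12.1 with empty vector in A549. The log2 fold changes were 0.19 in H1299 (adjusted p = 0.74) and -0.22 in A549 (adjusted p = 0.43), and edgeR's test of the difference gave 0.41 (SE 0.16, adjusted p = 0.38), which missed the threshold.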

How the results depend on the processing

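Of 388 recomputed values of the 19 main results, 378 were scored as unchanged in direction and side of the threshold. This score passed small turns of sign near 0. The mitochondrial median of the difference in VGF effect was -0.02 and reached 0.04 with 1 library left out. The A549 nuclear median for VGF was 0.02 and reached -0.0002, and both were scored as unchanged. For H1299 against A549 with empty vector, the nuclear median of 0.22 was 0.33 with upper-quartile scaling, 0.43 on log2(FPKM + 1), 0.43 on log2(FPKM + 0.1) and 0.39 on log2(FPKM + 1) without a filter; the mitochondrial median of -1.27 was -1.16 with upper-quartile scaling and -1.06 on each of the FPKM scales. Those scalings shift all features too, by 0.11 (upper quartile), 0.12 (1 added) and 0.19 (0.1 added). The log2 ratio of mitochondrial to nuclear sums of -1.50 was -1.60 with FPKM. DESeq2 called 1 nuclear member with VGF in A549, against 729 of all 18228 features. COX6A1 turned to 0.08 (0.083 with 1 added, 0.084 with 0.1, 0.083 unfiltered), COX7A2L to 0.036 and SDHC to 0.067, 0.072 and 0.067 on the FPKM scales; the cause was not tested.

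Leaving out 1 library, the nuclear calls between lines ran from 61 to 71 and the mitochondrial calls stayed at 13 to 13, with medians of 0.21 to 0.25 and -1.31 to -1.24. In A549 the nuclear median ran from -0.0002 to 0.04 and the mitochondrial from -0.13 to -0.06; in H1299 from 0.07 to 0.09 and from -0.16 to -0.05; for the difference from 0.02 to 0.07 and from -0.09 to 0.04, with calls of 0 to 0 in all of these. The log2 sum ratio, -0.10 for VGF in A549 and -0.17 in H1299, ran from -0.15 to -0.07 and from -0.24 to -0.13, and from -1.52 to -1.47 between lines.

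Deviations of same-numbered libraries of a line had r of -0.077 to 0.105, and those of differently numbered ones -0.073 to 0.122. With 3 libraries in each group, these values cannot exclude a shared culture or batch. A replicate block gave nuclear and mitochondrial medians of 0.22 and -1.27 between lines, with 66 nuclear calls, and 0 calls of members with VGF; TFB1M was not called (-0.56, adjusted p = 0.067). Fitted alone, A549 did not give the TFB1M call either (adjusted p = 0.13). The block also lost the calls of ATP5MC2 (adjusted p = 0.098) and COX7A2L (0.056) between lines. The 3 libraries of each group limit the precision of all values.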
